A study of Homo sapiens with 12 samples.

Results

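HL-60/S4 is an established human promyelocytic leukemia cell line, a subline of HL-60 that matures along the granulocytic pathway when all-trans retinoic acid (ATRA) is added. The comparison described here is that of its 2 forms at rest: 3 RNA-seq libraries of vehicle granulocytes, grown with 1 µM ATRA for 4 days, against 3 libraries of vehicle promyelocytes, which received no ATRA. Vehicle was water, given for 2 h in growth medium with added calcium, and both groups carry it. The members of the comparison were all genes that passed an expression filter on these 6 libraries (at least 10 reads at the median depth in 3 libraries), which kept 17118 of the 58288 genes in the deposited table. A further 28083 genes had no read pair in any of the 6 libraries. The labels give passage 8 for every flask, and each library came from a flask of its own, so p-values measure the spread between flasks of 1 cell line.

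Promyelocytes and granulocytes were treated in separate experiments, granulocytes were seeded at a lower density, and ATRA was dissolved in ethanol with no ethanol-only flask described. The difference between the cell types therefore cannot be told apart from the difference between the 2 experiments in any value below, and the text favours large differences whose groups do not overlap. RNA was measured in bulk, so fewer cells of a type and less RNA per cell cannot be told apart either.

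ATRA binds retinoic acid receptors, which pair with retinoid X receptors on DNA and turn from repressors into activators when the ligand is bound. In the myeloid lineage this drives promyelocytes, which divide and fill their azurophil granules with proteases and myeloperoxidase, toward neutrophil-like cells that leave the cell cycle, express adhesion and chemoattractant receptors and assemble the superoxide-producing NADPH oxidase. HL-60 cells are known for stopping short of normal neutrophils, since they do not form specific (secondary) granules.

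Promoter sequence is shown for 9 genes of the comparison because letters known to bind the retinoid receptors, E2F factors, the mitotic MuvB complex and MYC stand close to their starts. The windows are those of RefSeq on GRCh38.p14, read 5′ to 3′ on the strand of the gene, and capitals mark the motif. *RARB* and *CYP26A1*, both higher in granulocytes, hold a direct repeat of the retinoic acid half-site spaced by 5 bases (DR5), at chr3:25428188-25428248 on the plus strand and at chr10:93073781-93073841 on the plus strand. The repeat of *CYP26A1* is read from the other strand.
RARB: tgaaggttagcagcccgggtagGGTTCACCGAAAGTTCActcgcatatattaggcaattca
CYP26A1: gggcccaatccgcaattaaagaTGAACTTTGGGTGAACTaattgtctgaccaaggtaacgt
*MCM6* (chr2:135876504-135876555, minus strand), *GINS2* (chr16:85688956-85689007, minus strand) and *E2F1* (chr20:33686386-33686440, minus strand), all lower in granulocytes, hold the E2F letters.
MCM6: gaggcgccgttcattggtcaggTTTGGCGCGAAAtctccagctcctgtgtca
GINS2: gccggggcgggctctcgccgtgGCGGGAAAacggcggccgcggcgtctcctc
E2F1: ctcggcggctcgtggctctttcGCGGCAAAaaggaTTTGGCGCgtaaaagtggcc
The mitotic genes *PLK1* (chr16:23678838-23678887, plus strand) and *CDC20* (chr1:43358894-43358943, plus strand) hold the cell cycle genes homology region (CHR).
PLK1: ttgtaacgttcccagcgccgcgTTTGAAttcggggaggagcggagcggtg
CDC20: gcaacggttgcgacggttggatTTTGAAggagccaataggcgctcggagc
*ODC1* (chr2:10448014-10448063, minus strand) and *LYAR* (chr4:4290058-4290107, minus strand), which belong to the MYC network, hold the E-box.
ODC1: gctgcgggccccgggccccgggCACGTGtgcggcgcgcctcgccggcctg
LYAR: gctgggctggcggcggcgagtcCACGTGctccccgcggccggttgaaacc

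The libraries held 24592785 to 31775702 read pairs on genes. The first principal component separated the cell types and took 91.2% of the variance. Replicates lay close together, with a common biological coefficient of variation of 0.0543. Expression is given as CPM (a count relative to the TMM-scaled library size) and as the log2 fold change of granulocytes minus promyelocytes. At this depth 3 counts, the floor used here, stand at 0.107 CPM in either group, and floors cover counting error only. A gene was called at an adjusted p under 0.05 (edgeR quasi-likelihood test, Benjamini-Hochberg over all 17118 genes), and a large difference is a called one with a log2 fold change of at least 1 in size and no overlap between the 3 promyelocyte and the 3 granulocyte values. With 3 libraries against 3, a two-sided exact permutation test of 1 gene cannot go below 0.1, so no single gene was tested that way.

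About as many genes were called higher as lower, but TMM scaling takes most genes as unchanged and so largely sets this balance. With scaling from nuclear protein-coding genes, 6776 were called higher and 6090 lower. In granulocytes 6272 genes (36.6% of those tested) were called higher and 6591 (38.5%) lower, and the median log2 fold change over all genes was -0.01. Large differences were 3183 higher (18.6%) and 2751 lower (16.1%). These percentages, and those of the called genes, are the background for every count of list members below. The largest differences were more often increases: 758 large differences were higher by a log2 fold change of at least 3 and 290 were lower by as much. In 259 genes with a large increase all promyelocyte libraries were at or under the floor, and in 89 with a large decrease all granulocyte libraries were. Genes are named below mostly by size or expression within lists and classes, and 46 of those in the text and closing section were chosen after their values were seen. The plot of all genes shows both tails across the range of expression.

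**Figure D1:**
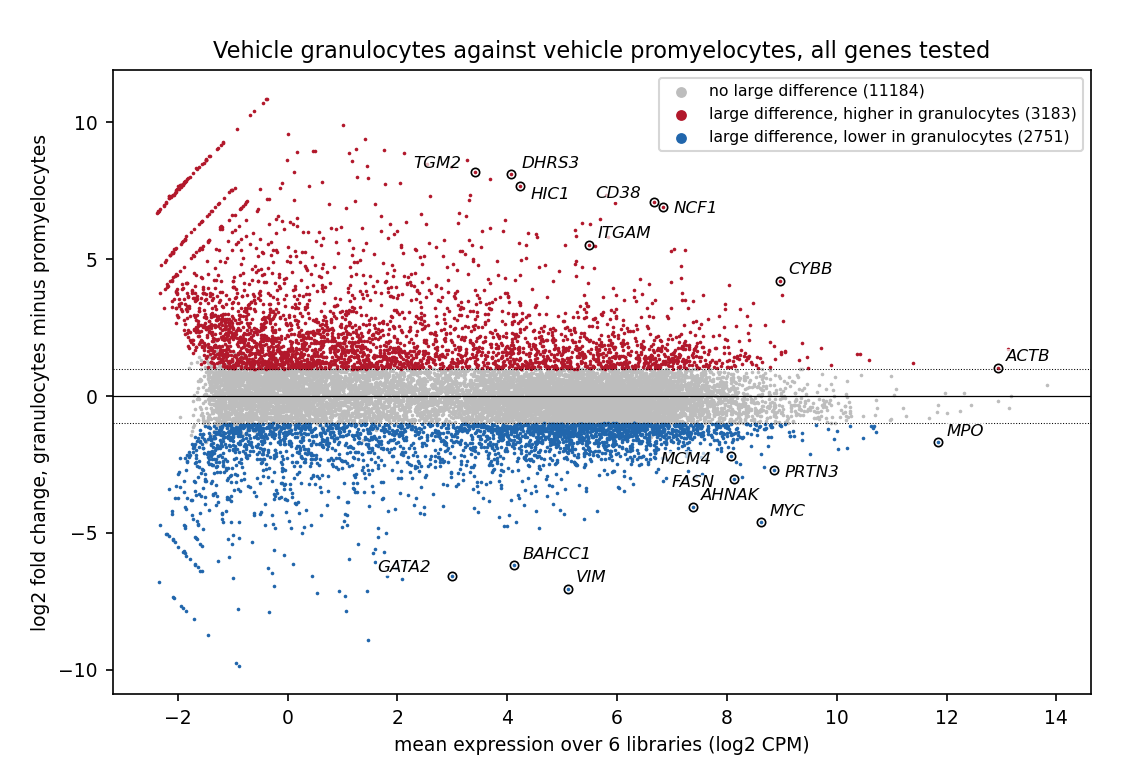
Mean log2 CPM over the 6 vehicle libraries (x axis) against the log2 fold change of granulocytes minus promyelocytes (y axis) for each of the 17118 genes tested, with dotted lines at a log2 fold change of 1 and -1. Large differences are red (3183, higher in granulocytes) or blue (2751, lower), and named genes are circled.

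The strongest increases among well expressed protein-coding genes included a retinoid enzyme, a transcriptional repressor, an oxidase subunit and surface receptors. *DHRS3*, a short-chain dehydrogenase that reduces retinaldehyde to retinol (chr1:12567910-12617731, minus strand), stood at 1.03, 1.02 and 0.862 CPM in the promyelocyte libraries and at 261, 269 and 276 CPM in the granulocyte libraries. Its log2 fold change of 8.11 (SE 0.09, adjusted p = 5.8e-33, edgeR) was the largest among protein-coding genes that had a large difference and whose log2 CPM averaged 4 or more, the class from which the 12 largest increases and 12 largest decreases were drawn by size. *HIC1*, a transcriptional repressor gene (chr17:2054154-2063241, plus strand), read 1.06, 1.56 and 1.29 CPM in promyelocytes and 252, 260.4 and 271 CPM in granulocytes. Both genes went from about 1 CPM to over 250 CPM without overlap. *CD38*, an ectoenzyme that breaks down NAD and a long-used marker of the ATRA response (chr4:15778275-15853230, plus strand), was at 8.74, 7.21 and 10.3 CPM against 1127, 1209 and 1221 CPM, a log2 fold change of 7.08 (SE 0.09, adjusted p = 3.15e-32, edgeR). The 12 largest increases also held *NCF1*, *CR1*, *CD300LB* (6.27), *SEMA6B* (6.05), *LILRB2* (5.93), *ITGB7* (5.86), *CD1D* (5.82) and *ALOX5AP* (5.80), with log2 fold changes in brackets where they are not given below. *CD300LB* and *LILRB2* are immunoglobulin-type receptors of myeloid cells, *ITGB7* an integrin subunit, *CD1D* a lipid-presenting molecule and *ALOX5AP* the protein that hands arachidonic acid to 5-lipoxygenase.

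The strongest decreases were led by the intermediate filament gene *VIM* (chr10:17228259-17237593, plus strand). It stood at 408, 395 and 372 CPM in promyelocytes and at 2.42, 2.97 and 3.53 CPM in granulocytes, a log2 fold change of -7.03 (SE 0.09, adjusted p = 3.29e-32, edgeR). All 3 granulocyte libraries had under 1% of the promyelocyte mean. *MYC*, the growth-promoting transcription factor, was at 2019.6, 1942 and 1834 CPM against 75.9, 80.1 and 83.7 CPM (log2 fold change -4.59, SE 0.06, adjusted p = 4.08e-31, edgeR). No library of one group overlapped the other in either gene. *BAHCC1* (-6.18), the arginine synthesis enzyme gene *ASS1* (-4.80), the fatty acid desaturase *FADS1* (-4.49), the calpain *CAPN2* (-4.36), the vesicular nucleotide transporter *SLC17A9* (-4.31), the actin-bundling protein *FSCN1* (-4.20), *TENT5C* (-4.20), the amino acid transporter *SLC38A5* (-4.14) and the giant scaffold *AHNAK* (-4.04) were also among the 12 largest decreases, with log2 fold changes in brackets.

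**Figure D2:**
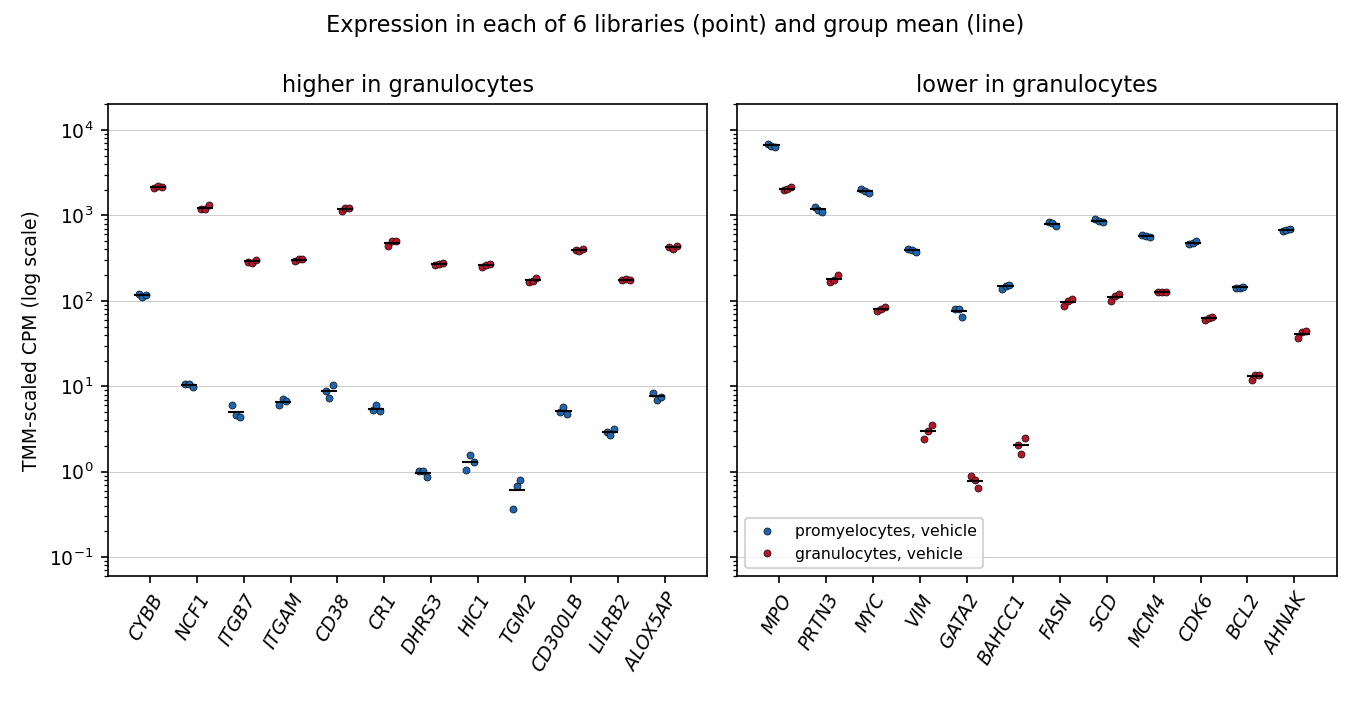
TMM-scaled CPM on a log axis in each of the 3 promyelocyte (blue) and 3 granulocyte (red) vehicle libraries, with a line at each group mean, for 12 genes higher (left) and 12 lower (right) in granulocytes. In none of the 24 genes do the points of the groups overlap.

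The labelled cell types were checked against their markers. The promyelocyte markers (*MPO*, *ELANE*, *AZU1*, *PRTN3*, *CTSG*, *KIT* and *CD34*) summed to 7620 to 8260 CPM in the promyelocyte libraries and to 2190 to 2420 CPM in the granulocyte libraries. The 10 genes listed as maturing neutrophil markers (among them *ITGAM*, *CYBB*, *NCF1*, *FPR1*, *CSF3R*, *CXCR2*, *FCGR2A*, *CEBPE* and *CD38*) summed to 335 to 353 CPM against 5210 to 5520 CPM. *CD38* was named above as a marker of the ATRA response, so these sums in part read that response itself. Most of the granulocyte sum came from *CYBB*, *NCF1* and *CD38*. The neutrophil genes *CEACAM8*, *CD177*, *FCGR3B*, *LTF* and *LCN2* are outside this list and did not pass the filter, so the sums do not establish a mature neutrophil identity. All 10 neutrophil markers were called higher and 8 had a large difference, against 36.6% and 18.6% of all genes. The exceptions were *FCGR2A*, at 23.8 ± 1.37 to 28.6 ± 0.942 CPM (mean ± SD, n = 3), and *CEBPE*, at 139 ± 7.09 to 215 ± 14.2 CPM. Of the 6 promyelocyte markers tested, 5 had a large decrease, and *KIT*, the stem cell factor receptor, went the other way, from 4.32 ± 0.751 to 26.1 ± 0.306 CPM (log2 fold change 2.59). *CD34* did not pass the filter.

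Markers of other blood and tissue cells summed to less than the neutrophil markers in both groups. Erythroid, megakaryocyte, B cell, T and NK cell and stromal markers each summed to at most 18.8 CPM in any library. Monocyte and macrophage markers summed to 20.2 to 23.1 CPM in promyelocytes and 129 to 135 CPM in granulocytes, carried by *CSF1R* (50.6 CPM in granulocytes) and *MERTK* (73.6 CPM). Of the 5 tested in that list, 3 had a large increase and 1 a large decrease, with a median log2 fold change of 3.62. *SIGLEC1* was among the increases (6.34). The decrease was that of *FCN1* (15.7 ± 1.76 to 0.247 ± 0.145 CPM), and the defining markers *CD14*, *CD163* and *MRC1* stayed below the filter. Eosinophil, basophil and mast cell markers summed to 45.6 to 49.0 CPM against 132 to 141 CPM. Of the 7 tested in that list most were lower: 5 had a large decrease and 2 a large increase, with a median log2 fold change of -3.23. The summed rise came from *CLC* (78.1 CPM in granulocytes, log2 fold change 2.48) and *CCR3* (0.253 ± 0.112 to 55.2 ± 2.25 CPM, 7.77). *PRG2*, the eosinophil major basic protein gene, was at 22.6 ± 1.23 to 0.438 ± 0.0717 CPM (log2 fold change -5.68), although 43.0% of its exon bases are shared with another gene of the same strand. Their part in the results was not tested.

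Granule genes differed in both directions. Of 15 azurophil granule genes tested, 5 had a large increase and 7 a large decrease, and the median log2 fold change was -0.92 against -0.01 over all genes. The serine proteases and myeloperoxidase were lower. *MPO*, which makes hypochlorous acid, was at 6876, 6535 and 6403 CPM in promyelocytes and 1964, 2045 and 2162 CPM in granulocytes (log2 fold change -1.68, SE 0.06, adjusted p = 1.28e-21, edgeR). *PRTN3*, the proteinase 3 gene, was at 1269.9, 1172 and 1112 CPM against 168, 176 and 199 CPM (log2 fold change -2.71, SE 0.06). Neither gene had overlapping groups, and *MPO* kept the larger share of its promyelocyte level. *CTSG* (cathepsin G, -1.70), *AZU1* (azurocidin, -1.34) and *LYZ* (lysozyme, -1.35) were also lower. *ELANE*, neutrophil elastase, was already at 1.92, 2.09 and 1.51 CPM in promyelocytes, and its granulocyte libraries were at or under the floor, which makes it at least 17.2-fold lower.

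The defensin genes were higher instead. *DEFA3*, an α-defensin, was at 22.9, 23.4 and 25.6 CPM in promyelocytes and 1049, 895 and 921 CPM in granulocytes (log2 fold change 5.32, SE 0.07, adjusted p = 3.14e-31, edgeR). *DEFA1* (4.11) and *DEFA4* (2.92) followed, as did *BPI* (2.10), which binds bacterial lipopolysaccharide, and *SERPINB1* (2.88), an inhibitor of the neutrophil serine proteases. *DEFA1* and *DEFA3* are near-identical, so how their reads were shared between them is uncertain. Of 16 specific and gelatinase granule genes, 11 did not pass the filter, among them *LTF*, *LCN2*, *CRISP3* and *ARG1* with 0 counts in all 6 libraries. The 5 tested summed to 8.53 CPM in promyelocytes and 11.4 CPM in granulocytes. Large increases were those of *HP* (mean 0.364 to 2.29 CPM), *MMP25* and *OLFM4*, 3 in all. *OLFM4* was at least 4.55-fold higher but reached a mean of only 0.485 CPM. *MMP9* (2.51 ± 0.202 to 1.63 ± 0.186 CPM) and *CHI3L1* (mean 3.33 to 1.79 CPM, log2 fold change -0.88) were called lower.

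NADPH oxidase genes were higher as a group: 6 of 7 had a large increase, none a large decrease, and the median was 1.97. *CYBB*, which encodes the catalytic gp91phox chain (chrX:37780011-37813461, plus strand), was at 119, 112 and 116 CPM in promyelocytes and 2108, 2187 and 2142 CPM in granulocytes, a log2 fold change of 4.21 (SE 0.06, adjusted p = 4.75e-31, edgeR). The cytosolic organizer *NCF1* (p47phox) was at 10.7, 10.6 and 9.87 CPM against 1188, 1198 and 1333 CPM, a log2 fold change of 6.90 (SE 0.07). Neither gene had overlapping groups. *CYBA*, the membrane partner p22phox, varied more between flasks, at 105, 107 and 67.7 CPM and 347, 325 and 424 CPM, and its log2 fold change was 1.97 (SE 0.10). *NCF4* (1.52) and the small GTPase *RAC2* (1.39) were higher, and the widely expressed *RAC1* differed by 0.24. *NCF1* has near-identical pseudogene copies, so its share of their reads is uncertain.

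Adhesion and receptor genes carried the next group of increases. Of 15 leukocyte integrin and adhesion genes tested, 8 had a large increase and none a large decrease (median 1.06). *ITGAM*, the CD11b chain of the complement receptor Mac-1, was at 5.96, 7.02 and 6.78 CPM in promyelocytes and 292, 307 and 310.1 CPM in granulocytes (log2 fold change 5.53, SE 0.07, adjusted p = 8.73e-32, edgeR). Its partner chain *ITGB2* was higher by 2.73 and *ITGAX* (CD11c) by 4.79. *CEACAM1* had the largest difference of the list: 0.132, 0.0759 and 0.144 CPM against 58.3, 60.7 and 65.3 CPM, a log2 fold change of 8.97. *ICAM1* (6.43), a ligand of the leukocyte integrins, was higher too, whereas the broadly expressed *ITGB1* (0.64), *ITGA5* (0.44) and *ITGA4* (0.22) were called higher by less than 1. The neutrophil surface genes *CEACAM8* and *CD177* did not pass the filter.

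Chemoattractant receptors had 6 large increases and 1 large decrease among 10 tested. The leukotriene B4 receptor *LTB4R* was at 17.6, 22.7 and 23.7 CPM against 169, 178 and 189.8 CPM (log2 fold change 3.07), and the chemokine receptor *CCR1* at 7.85, 6.57 and 6.21 CPM against 200.5, 215 and 219.8 CPM (4.94). The formyl peptide receptors *FPR1* (3.01) and *FPR2* (2.84) and the interleukin-8 receptor *CXCR2* (1.91) were higher, although *FPR1* reached only 5.74, 5.43 and 6.44 CPM. *CXCR4*, which retains myeloid cells in bone marrow, was the member that was lower (19.8 ± 2.69 to 8.63 ± 0.586 CPM, log2 fold change -1.20). *C5AR1*, the receptor for complement C5a, did not pass the test (0.32, adjusted p = 0.218, edgeR).

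Receptors for opsonins, microbes and cytokines were more often higher than lower. Among 9 Fc and complement receptor genes, 5 had a large increase and none a large decrease. *CR1*, which binds C3b, was at 5.30, 6.07 and 5.10 CPM against 441, 501 and 498 CPM (log2 fold change 6.45, SE 0.08), and *FCER1G*, the shared signalling chain, was higher by 4.67. *FCGR1A* (1.10) and its paralog *FCGR1BP* share sequence, so their split is uncertain, and the neutrophil Fc receptor genes *FCGR3A* and *FCGR3B* did not pass the filter. Pattern recognition receptors had 6 large increases of 11, led by the β-glucan receptor *CLEC7A* (0.809 ± 0.171 to 9.20 ± 0.765 CPM) and *TLR1* (2.46), and 1 large decrease, *CLEC12A* (-1.62). Cytokine receptors had 7 of 10, namely *CSF1R* (3.62), *IL10RA* (3.11), *KIT*, *CSF2RB* (2.12), *CSF2RA* (1.74), *IFNGR1* (1.43) and the G-CSF receptor *CSF3R* (1.09). The plot of gene lists places these lists above 0 and the growth lists below it.

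**Figure D3:**
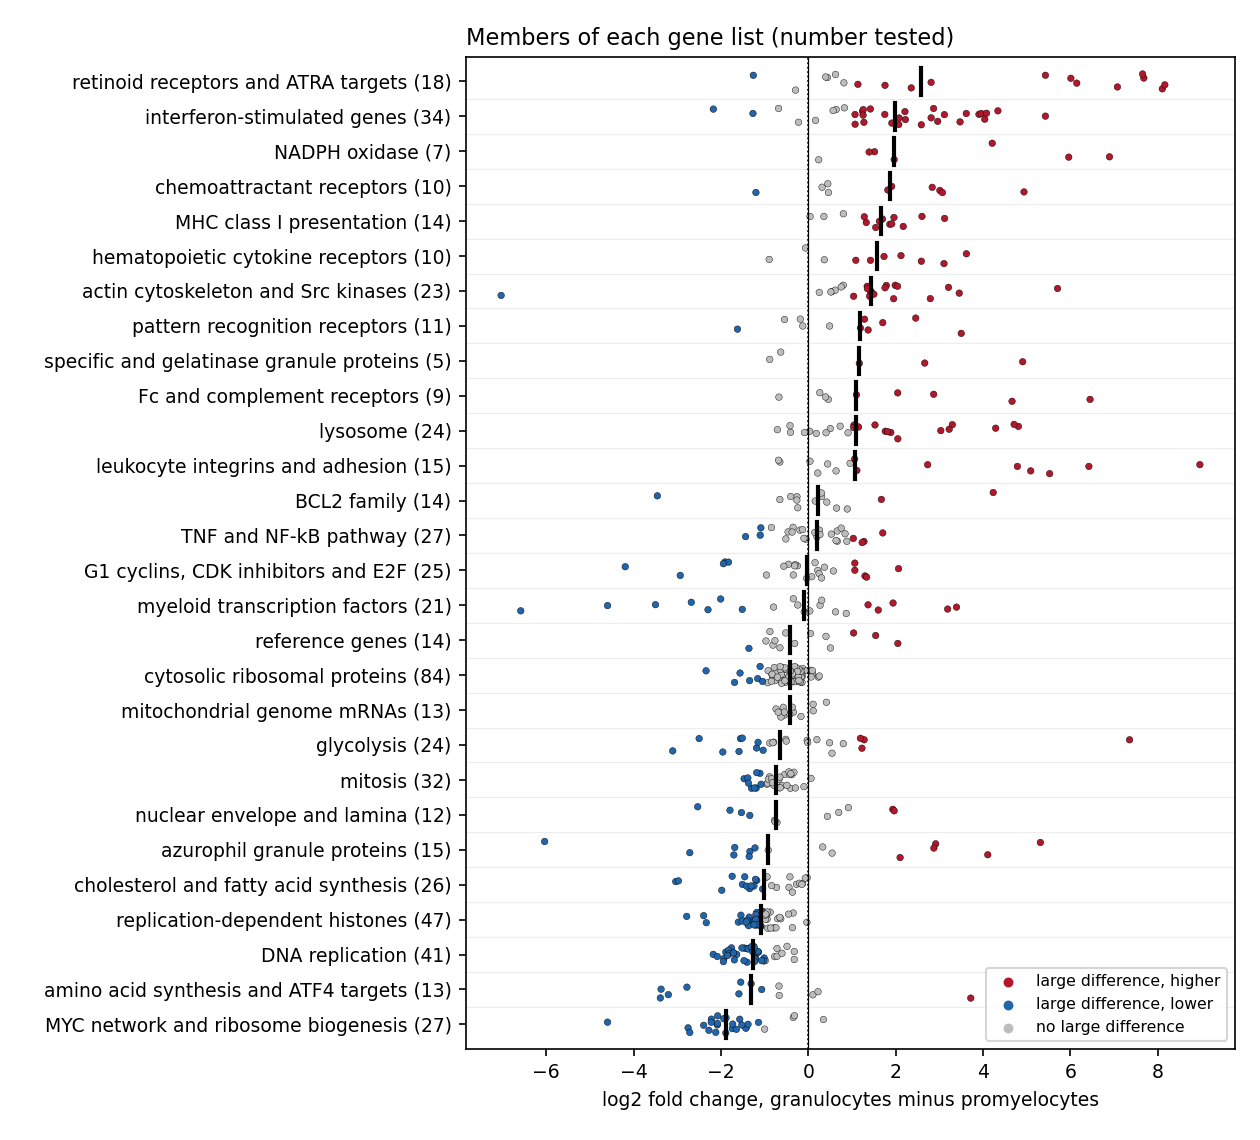
Log2 fold change of granulocytes minus promyelocytes (x axis) for every tested member of each gene list (rows, with the number tested in brackets), ordered by the list median (thick line); red and blue mark large differences and grey the rest, and the dotted line marks the median of all genes. Retinoid targets have the highest median (2.59) and the MYC network the lowest (-1.88).

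Retinoid genes had the highest median of the lists plotted. Of 18 tested, 12 (66.7%) had a large increase against 18.6% of all genes, and the median was 2.59. *TGM2*, tissue transglutaminase, was at 0.364, 0.683 and 0.79 CPM in promyelocytes and 166, 171 and 187 CPM in granulocytes (log2 fold change 8.16, SE 0.11, adjusted p = 3.07e-31, edgeR). *RARB*, the receptor gene whose DR5 repeat is printed above, was at 0.0331, 0.0759 and 0.0718 CPM against 12.5, 13.1 and 13.7 CPM (adjusted p = 6.49e-22, edgeR). *CYP26A1*, the hydroxylase that clears retinoic acid and which holds the other repeat, was at 0.232, 0.152 and 0.574 CPM against 0.625, 0.674 and 0.822 CPM (log2 fold change 1.14, adjusted p = 0.0226, edgeR). All promyelocyte libraries of *RARB* were under the floor, so it is given as at least 123-fold higher, while *CYP26A1* stayed under 1 CPM in every library. Further increases were *PLAAT4* (6.15), *ASB2* (6.01), a ubiquitin ligase subunit, and *UBA7* (5.43), the E1 enzyme of ISG15. The receptors differed less: *RARA* was at 55.8 ± 1.20 to 75.7 ± 5.19 CPM (0.44) and *RXRA*, the 1 large decrease of the list, at 155 ± 5.87 to 64.8 ± 2.13 CPM (-1.26).

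DR5 repeats were rare in the windows searched, which run from 250 bases before to 50 after each start. They stood in 0.106% of 27305 genes with a RefSeq window and in 0.0867% of the 10384 genes tested that matched one by symbol, of 17021 symbols, and in 2 of the 18 retinoid genes tested, 12 of which had a window. Of 9 tested genes with a repeat, 4 had a large increase (*BATF2*, *RARB*, *CFLAR* and *CYP26A1*) and 1 a large decrease (*HROB*). The absence of a match says only that these letters are not in the window.

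Myeloid transcription factor genes differed in both directions. Of 21 tested, 5 (23.8%) had a large increase and 7 (33.3%) a large decrease, against 18.6% and 16.1% of all genes. The share of increases was thus near that of all genes. *CEBPB*, a C/EBP factor of mature myeloid cells, went from 13.3 ± 1.92 to 140.0 ± 8.09 CPM (log2 fold change 3.39, adjusted p = 3.19e-26, edgeR). *GATA2*, a progenitor factor, went from 75.3 ± 8.47 to 0.786 ± 0.126 CPM (log2 fold change -6.58, SE 0.12, adjusted p = 4.46e-28, edgeR). The groups of neither gene overlapped. *EGR1* (3.19), *ID2* (1.94), *CEBPD* (1.60) and *KLF6* (1.37) were the other increases. *CEBPA* (-2.29), *MYB* (-2.00), *IRF8* (-2.68), *NFE2* (-3.50), *KLF4* (-1.51) and *MYC* were the other decreases. *RUNX1* differed by -0.09 (adjusted p = 0.121, edgeR), and *GFI1*, a transcriptional repressor needed for granulopoiesis, by 0.27.

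The MYC network and ribosome biogenesis had the lowest median of the lists plotted. Of 27 genes, 23 (85.2%) had a large decrease and none a large increase, against 16.1% of all genes lower, and the median was -1.88. *ODC1*, the rate-limiting enzyme of polyamine synthesis, was at 438, 396 and 381 CPM in promyelocytes and 59.9, 59.9 and 60.7 CPM in granulocytes (log2 fold change -2.75, adjusted p = 1.54e-26, edgeR). The nucleolar genes *LYAR* (-2.71), *NOLC1* (-2.39), *RRP9* (-2.27), *FBL* (-2.22) and *NPM1* (-1.89) were lower in the same range. The MYC partner *MAX* (-0.34) and the RNA polymerase I factor *UBTF* (-0.31) were called lower by less than 1, and the MYC antagonist *MXD1* was the 1 gene called higher (0.35). The cytosolic ribosomal proteins themselves differed less: 75 of 84 were called lower, against 38.5% of all genes, with a median of -0.42. Only 7 (8.33%) had a large decrease, a share below the 16.1% of all genes. Among those 7 were *RPL22L1* (-1.69), *RPL26L1* (-1.56) and *RPL39L* (-2.34), copies of canonical ribosomal protein genes, and paralogs of this family share reads in ways that are uncertain.

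DNA replication genes were lower without exception. All 41 tested were called lower and 33 (80.5%) had a large decrease, against 38.5% and 16.1% of all genes. The median was -1.27. The helicase subunit gene *MCM4* was at 585, 572 and 566 CPM in promyelocytes and 127, 126 and 128 CPM in granulocytes (log2 fold change -2.17, SE 0.05, adjusted p = 2.28e-25, edgeR). *MCM2* (-1.93), *MCM6* (-1.89), the initiation factor *MCM10* (-1.94) and the GINS subunit *GINS2* (-2.08) had differences of like size. The highest expressed members without a large difference were *RRM2* (183 ± 2.78 to 112 ± 11.8 CPM), *RFC1* (155 ± 1.80 to 91.1 ± 2.38 CPM) and *POLE* (216 ± 6.80 to 109 ± 5.05 CPM), all called lower. Replication-dependent histone genes, which are transcribed in S phase, followed with 46 of 47 called lower, 29 (61.7%) by a large difference, and a median of -1.08. Histone genes are near-identical in part, so the split between copies is uncertain. Their mRNAs lack poly(A) tails, and the libraries were made by ribosomal RNA depletion, which keeps them.

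Mitotic genes were lower by smaller amounts. Of 32 tested, 30 were called lower but 9 (28.1%) had a large decrease, against 38.5% and 16.1% of all genes. The median was -0.73. *PLK1*, a mitotic kinase, was at 189, 178 and 165 CPM in promyelocytes and 70.9, 71.0 and 74.3 CPM in granulocytes (-1.30). *MAD2L1* (-1.47), *BIRC5* (-1.38), *PTTG1* (-1.37) and *CDC20* (-1.23) were lower in the same range. *MKI67*, the proliferation marker, was at 824, 851 and 879.7 CPM against 703, 834 and 851 CPM, and the difference of -0.10 did not pass the test (adjusted p = 0.143, edgeR). *TOP2A* (752 ± 21.7 to 536 ± 14.2 CPM) and *CENPF* (498 ± 24.6 to 264 ± 1.80 CPM) were called lower by less than 1.

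Of 25 G1 cyclin, CDK inhibitor and E2F genes, 5 (20%) had a large increase and 5 (20%) a large decrease, shares close to the 18.6% and 16.1% of all genes. The kinases *CDK6* (477 ± 20.5 to 62.6 ± 2.83 CPM, log2 fold change -2.93) and *CDK4* (-1.83), cyclin E1 (*CCNE1*, -1.91) and the transcription factors *E2F1* (-1.94) and *E2F5* (-4.19) were the 5 large decreases. The cyclins *CCND1* (1.30) and *CCND3* (1.34) and the CDK inhibitors *CDKN2D* (2.07), *CDKN1A* (1.07) and *CDKN1C* (1.07) were the 5 large increases. *CCND2* was at 673 ± 24.6 to 711 ± 25.6 CPM and did not pass the test (adjusted p = 0.162, edgeR). Of 12 nuclear envelope genes, 2 (16.7%) had a large increase, near the share of all genes, and 4 (33.3%) a large decrease (median -0.74). The lamins *LMNA* (-2.53), *LMNB2* (-1.53) and *LMNB1* (-1.34) and the linker *SUN1* (-1.79) were lower by large differences. *SUN2* (1.94) and *SYNE1* (1.97) were higher by large differences, and the lamin B receptor *LBR* was called higher by 0.70.

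The promoter windows of the growth lists differed in the motifs they held. E2F letters (TTTCCCGC, TTTCGCGC, TTTGCCGC or TTTGGCGC on either strand) stood in 16 of 34 replication genes with a window (47.1%) against 3.99% of all genes and 6.76% of the genes tested. The CHR (TTTGAA or TTCGAA) stood in 21 of 27 mitotic genes (77.8%) against 19.5% of all genes and 15.9% of the genes tested. It stood in 2 of 34 replication genes. The box bound by NF-Y (CCAAT) stood in 23 of 27 mitotic, 33 of 42 histone and 18 of 20 cholesterol and fatty acid synthesis genes. Its share was 39.7% of all genes and 42.8% of the genes tested. The E-box (CACGTG) stood in 9 of 21 MYC network genes (42.9%) against 8.77% of all genes and 12.7% of the genes tested. It stood in 0 of 42 histone genes. In *MCM6* and *E2F1* more than 1 E2F match was found, and in *MCM6* the matches of the 2 strands overlap. A match of letters is a description, not a bound site, and no test was made of these shares.

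**Figure D4:**
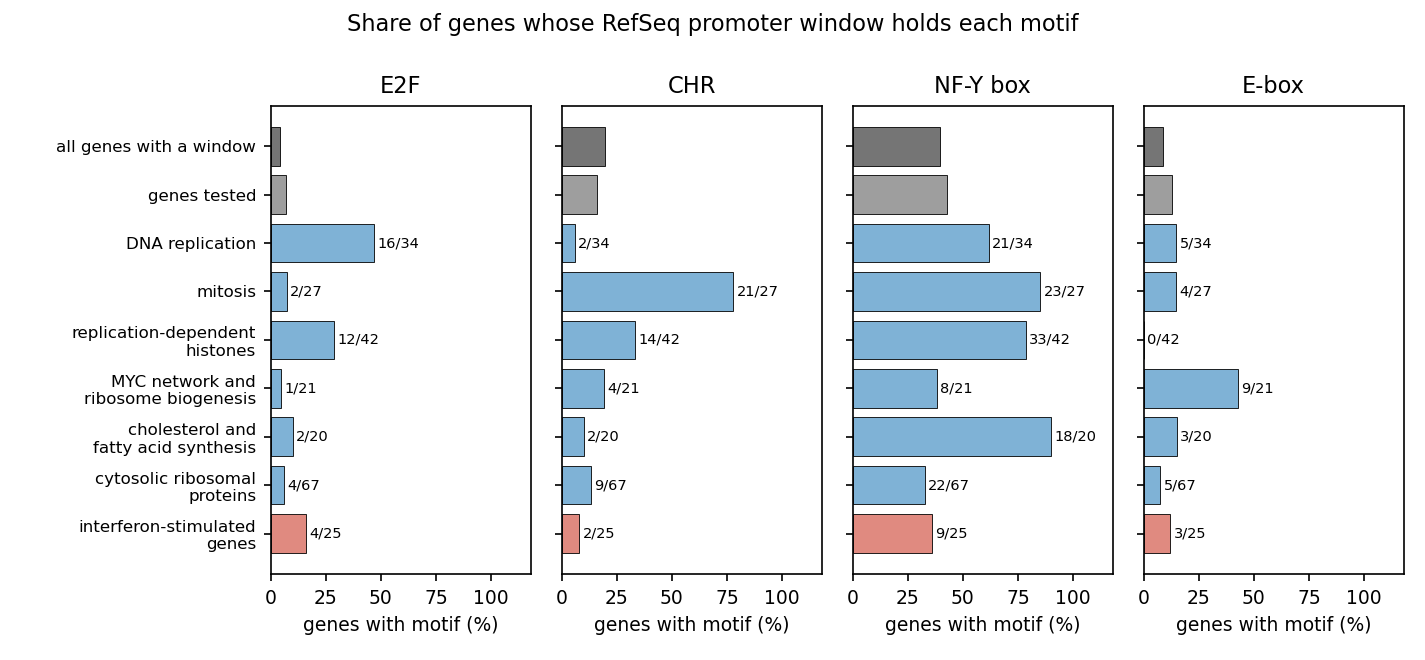
Percent of genes whose RefSeq promoter window holds the E2F, CHR, NF-Y or E-box motif on either strand (x axis), with the number of genes over the number with a window beside each bar. Grey bars are all genes with a window and the genes tested, blue bars lists with a median below 0 and the red bar a list with a median above 0; the E2F share is highest for DNA replication (47.1%) and the CHR share for mitosis (77.8%).

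Metabolic genes were mostly lower. Of 26 cholesterol and fatty acid synthesis genes, 13 had a large decrease and none a large increase (median -1.01). *FASN*, fatty acid synthase, was at 829, 824 and 754 CPM in promyelocytes and 88.0, 99.6 and 106 CPM in granulocytes (log2 fold change -3.03, SE 0.06, adjusted p = 1.21e-26, edgeR). *SCD*, which desaturates its products, was at 906, 852 and 847 CPM against 99.2, 114 and 119 CPM (-2.97). Sterol pathway genes such as *HMGCS1* (-1.98), *SQLE* (-1.74) and *LSS* (-1.51) had smaller decreases, and the sterol-regulated transcription factor *SREBF2* was at 289 ± 8.09 to 261 ± 6.26 CPM. Amino acid synthesis and ATF4 target genes had 8 large decreases of 13, among them the serine synthesis enzymes *PSAT1* (-3.37) and *PHGDH* (-2.78). The cystine transporter *SLC7A11* was the 1 large increase, from 24.1 ± 1.48 to 317 ± 11.4 CPM.

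Glycolytic genes had 9 large decreases (37.5%) and 4 large increases (16.7%) of 24 tested, against 16.1% and 18.6% of all genes. The lactate transporter *SLC16A1* (-3.10) and lactate dehydrogenase *LDHA* (721 ± 22.8 to 128 ± 7.67 CPM, -2.50) were lowest. *HK3*, a hexokinase of myeloid cells, was at 0.662, 0.683 and 0.897 CPM in promyelocytes and 128, 119 and 122 CPM in granulocytes (log2 fold change 7.36, adjusted p = 1.7e-31, edgeR). *SLC2A3* (1.28), *HK1* (1.23) and *PFKM* (1.20) were the other increases. Lysosome genes were higher in 14 of 24 cases by a large difference and lower in none (median 1.10), with the protease *CTSD* (32.4 ± 2.17 to 636 ± 43.9 CPM), the cholesterol carrier *NPC2* (3.30) and the lysosomal regulators *TFEB* (4.71) and *TFE3* (3.23) among them. Of the exon bases of *CTSD*, 41.7% are shared with another gene of the same strand, so its count covers the rest only.

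Most interferon-stimulated genes were higher in granulocytes. Of 34 tested, 26 (76.5%) had a large increase against 18.6% of all genes, with a median of 1.99. The antiviral GTPase *MX2* was at 4.47, 5.01 and 4.34 CPM in promyelocytes and 56.2, 57.9 and 55.5 CPM in granulocytes (log2 fold change 3.62, adjusted p = 4.99e-26, edgeR). *IFI6* was at 6.46, 5.12 and 5.28 CPM against 89.1, 80.6 and 84.8 CPM (3.91). No library of one group reached the other in either gene. *TRIM22* (4.08), *UBE2L6* (4.04), *OAS1* (3.12) and *RSAD2* (3.96) were higher, *ISG15* by 0.64, and *HERC5* (-2.17) and *ISG20* (-1.27) were lower by large differences. MHC class I presentation genes had 11 large increases of 14, among them *HLA-B* (139.8 ± 10.0 to 849.7 ± 36.6 CPM), *HLA-C* (1.96), *B2M* (1.54) and the immunoproteasome subunit *PSMB9* (3.12). HLA genes are polymorphic paralogs, and their split is uncertain. Of 10 MHC class II genes only *HLA-DMA* passed the filter, at 0.96 ± 0.133 to 1.26 ± 0.241 CPM.

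Genes of the actin and Src family list were called higher with 1 exception, although the actin-bundling *FSCN1*, outside that list, was lower (-4.20). Of 23 actin and Src family genes, 22 were called higher, against 36.6% of all genes. *VIM* had the 1 large decrease, and 16 genes (69.6%, against 18.6% of all genes) had a large increase. The myeloid Src kinase *FGR* (0.958 ± 0.0841 to 50.4 ± 1.04 CPM), the leukocyte protein *LSP1* (3.21) and the actin-severing *GSN* (76.6 ± 0.924 to 532 ± 22.9 CPM) were among them. *ACTB* was at 5718, 5418 and 5254 CPM against 10660.0, 10946 and 12073 CPM (1.04). Genes often used as references did not all stay level: *GUSB* (2.05) and *B2M* were higher and *HPRT1* (-1.36) lower by large differences, *GAPDH* went from 4323 ± 272 to 2469.6 ± 134 CPM and *RPLP0* did not pass the test (0.05, adjusted p = 0.425, edgeR). Mitochondrial mRNAs had no large difference in 13 genes, with a median of -0.42.

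Genes of TNF-α signalling, the agent of the wider study, had large differences at rest in shares near those of all genes. Of 27 pathway genes tested, 4 (14.8%) had a large increase and 3 (11.1%) a large decrease, against 18.6% and 16.1% of all genes, and the median was 0.20. *TNF* itself was at 21.6, 21.1 and 20.2 CPM in promyelocytes and 14.9, 14.3 and 14.9 CPM in granulocytes (log2 fold change -0.51, adjusted p = 1.19e-06, edgeR). Its receptor genes were both called higher: *TNFRSF1A* at 137, 134 and 128 CPM against 213, 204 and 215 CPM (0.66), and *TNFRSF1B* at 47.8, 40.0 and 45.5 CPM against 79.5, 80.7 and 86.0 CPM (0.88). None of these 3 genes had overlapping groups, and none reached a 2-fold difference. The large increases were *REL* (1.71), *BIRC2* (1.28), *CFLAR* (1.23) and *TRAF1* (1.03), and the large decreases *NFKBIB* (-1.43), *BIRC3* (-1.10) and *TRAF2* (-1.08). Of the exon bases of *REL*, 50.7% are shared with another gene of the same strand. The BCL2 family sets the threshold for apoptosis. Of its 14 genes tested, 2 (14.3%) had a large increase and 1 (7.14%) a large decrease, shares below those of all genes. Their median was 0.23. The large decrease was that of *BCL2*, at 142, 142 and 147 CPM against 11.8, 13.7 and 13.7 CPM (-3.45). *BCL2A1* (4.09 ± 1.07 to 77.5 ± 3.09 CPM, 4.24) and *PMAIP1* (1.67) had the large increases, and *MCL1* was called higher by 0.89.

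Long noncoding RNA genes were more often higher. They took 1.59% to 1.85% of the read pairs in promyelocytes and 3.01% to 3.22% in granulocytes. Of 2601 tested, 690 (26.5%) had a large increase and 310 (11.9%) a large decrease, whereas protein-coding genes split 1965 to 2040. *PTPRN2-AS1*, an antisense RNA, was at 3.87, 5.05 and 4.81 CPM in promyelocytes and 346, 366 and 378 CPM in granulocytes (log2 fold change 6.32, adjusted p = 5.73e-32, edgeR). *BCAN-AS1* (4.36), *SLC9A3-AS1* (4.20), *C1RL-AS1* (4.07) and *LINC01504* (4.05) followed. *MIR17HG*, the host transcript of the miR-17-92 cluster, was at 86.3, 88.8 and 93.9 CPM against 13.6, 14.4 and 11.2 CPM (-2.78). *LINC00926* (-3.26), *SNHG4* (-2.91), *LINC01215* (-2.60) and *GATA2-AS1* (-2.54), which lies opposite *GATA2*, were the other leading decreases. Counting used strand, so reads of *GATA2-AS1* and *GATA2* were kept apart. Of the exon bases of *SNHG4*, 28.8% are shared with another gene of the same strand.

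The cell type difference was read again in the 6 libraries that received TNF-α. They share no library with the comparison above but come from the same 2 experiments. TNF-α was given for 2 h, as vehicle was, and at the same concentration in both cell types. Of the 3183 genes with a large increase, 2350 (73.8%) had a large increase there too, and of the 2751 with a large decrease, 1983 (72.1%) had a large decrease. Of the 5934 genes together, 37 were called in the opposite direction with TNF-α. *DHRS3* differed by 6.06, *NCF1* by 6.32, *CYBB* by 3.25, *VIM* by -6.12, *MYC* by -3.45 and *GATA2* by -6.25 on the log2 scale in the TNF-α libraries. *ICAM1* was higher by 6.43 with vehicle and 2.61 with TNF-α. *FSCN1* was lower by a log2 fold change of -4.20 with vehicle and higher by 1.48 with TNF-α, and whether the 2 differences differ was not tested.

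**Figure D5:**
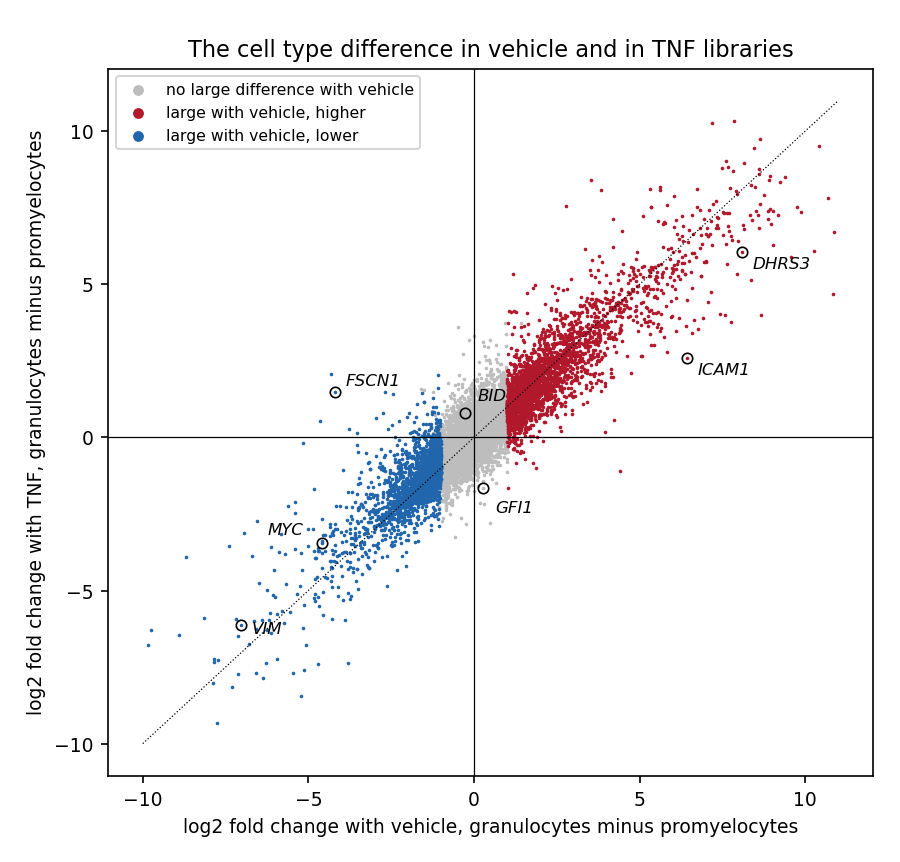
Log2 fold change of granulocytes minus promyelocytes in the 6 vehicle libraries (x axis) against that in the 6 TNF-α libraries (y axis) for the genes tested in both, with the line of equal values dotted. Genes with a large difference with vehicle are red (higher) or blue (lower), 2350 of 3183 and 1983 of 2751 also have a large difference of the same sign with TNF-α, and *FSCN1* (-4.20 and 1.48) and *GFI1* (0.27 and -1.65) lie in the opposite quadrants.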

How the data were processed

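The deposited table held raw counts of read pairs per gene, which the authors made from stranded, ribosomal RNA-depleted, paired-end libraries. Per the submitters' processing notes they used FastQC 0.11.4, STAR 2.5.3a, featureCounts 1.5.2 and DESeq2 1.16.1 with GENCODE annotation on hg38. Counting used strand and whole pairs, and pairs on exons of more than 1 gene of a strand were left out, so genes that overlap on a strand are undercounted. Symbols came from a later GENCODE release, which lacks some of the table's genes.

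The 3 vehicle granulocyte and 3 vehicle promyelocyte libraries were fitted in edgeR 4.0.16 (R 4.3.3) with TMM scaling, the default expression filter (at least 10 counts at the median depth in 3 libraries and 15 in all), a quasi-likelihood test and Benjamini-Hochberg adjustment over all genes. Tests on simulated counts for 16283 genes recovered 190 of 200 changed genes, with 8 false calls. The simulation changed only those 200 genes, none of low expression, and gave every gene the same biological coefficient of variation. Most genes were called in the real comparison, so these figures do not carry over to it. The genes, gene lists and naming rule were chosen with earlier results of these data known. Named were the 12 largest increases and 12 largest decreases among protein-coding genes whose log2 CPM averaged 4 or more, up to 5 members of each list with a large difference and up to 3 of the highest expressed without, the 5 largest changes each way among long noncoding RNAs, the TNF-α gene and its receptor genes, and the promyelocyte and neutrophil markers; some of these genes are not reported here. Alternatives covered scaling, filter, tool (DESeq2 1.42.0), thresholds, a replicate block, depth, GC content and length, the libraries fitted and leaving out each library. Promoter windows were those of RefSeq on GRCh38.p14, 250 bases before to 50 after each start, searched on both strands. Depth was 24592785 to 31775702 counts per library, and 3 counts were taken as the floor.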

Additional observations from a re-analysis of the deposited data

Results flagged for a closer look

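For 13 of the 288 genes named, all 3 granulocyte libraries lay on one side of the 3 promyelocyte libraries with vehicle and on the other side with TNF-α. Values are the log2 fold change of granulocytes minus promyelocytes. The same share was not counted over all genes, and with vehicle the groups did not overlap in 76.6% of all genes tested. The count is therefore no result about the named genes. *NKG7* was not called with TNF-α (adjusted p = 0.187, edgeR). The difference between the vehicle and the TNF-α value was not tested for any of them. Lower in granulocytes with vehicle and higher with TNF-α were *FSCN1* (-4.20 and 1.48), *IRF8* (-2.68 and 1.48), *BIRC3* (-1.10 and 1.62), *CHI3L1* (-0.88 and 0.53), *MMP9* (-0.63 and 0.35), *PKM* (-0.50 and 0.17), *NKG7* (-0.37 and 0.16), *BID* (-0.26 and 0.81) and *TLR2* (-0.18 and 0.18). Higher with vehicle and lower with TNF-α were *ITGA4* (0.22 and -0.43), *FCGR2A* (0.26 and -0.35), *GFI1* (0.27 and -1.65) and *C3AR1* (0.45 and -0.55). *IRF8*, an interferon regulatory factor of monocyte commitment, and *BIRC3*, an inhibitor of apoptosis in the TNF-α pathway, had a large difference with vehicle, as did *FSCN1*. Groups of 3 are too small for a check of single outlying libraries.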

How the results depend on the processing

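In the comparison of vehicle granulocytes with vehicle promyelocytes, the 6272 called higher, 6591 called lower, 3183 large increases and 2751 large decreases stayed within 1.5 times of their values under DESeq2 and its size factors, another scaling, no low-count filter, thinning to equal depth, removal of GC and length trends and an adjusted p under 0.01. Exceptions were a filter at a mean log2 CPM of 1, which left 11850 genes and 1878 large increases and 1673 large decreases, and a log2 fold change of at least 2, which left 1479 and 766. Testing against a fold change of 2 (glmTreat) gave 2416 and 2010. With each library left out once there were 6105 to 6413 called higher, 6382 to 6537 called lower, 3305 to 3502 large increases and 2710 to 2875 large decreases. Of the 5934 large differences, 5209 (87.8%) held in all 6 of those fits. Replicate numbers did not pair the flasks: deviations of same-numbered libraries correlated at 0.119, 0.0498 and -0.179, and a replicate block gave 6209, 6527, 3184 and 2742. Log2 fold changes of named genes that reversed in the TNF-α libraries, where the agent also differs, were *GFI1* -1.65, *C3AR1* -0.55, *ITGA4* -0.43, *FCGR2A* -0.35, *CEBPE* -0.12, *RARA* -0.0334, *CD55* -0.0322, *RBL2* -0.0115, *TNF* 0.0832, *MT-ND4* 0.0851, *SREBF2* 0.0863, *NKG7* 0.16, *PKM* 0.17, *TLR2* 0.18, *RUNX1* 0.27, *FLT3* 0.29, *MMP9* 0.35, *CHI3L1* 0.53, *NLRP3* 0.63, *BID* 0.81, *FSCN1* 1.48, *IRF8* 1.48 and *BIRC3* 1.62. With GC and length trends removed *NLRC5* was at -0.12 and *FLT3* at 0.11, and *FLT3* was at 0.0246 under the stricter filter and at 0.0189 under scaling by nuclear protein-coding genes. Omitting 1 library reversed *LAMP1* (range -0.0154 to 0.09, below 0 without granulocyte 3 or promyelocyte 3), *NLRC5* (-0.0031 to 0.0734, below 0 without promyelocyte 1) and *APOE* (-0.554 to 0.0165, above 0 without promyelocyte 2). The cause of these changes was not tested. Cell type and experiment run cannot be told apart under any setting. At the floor of 3 counts, 0.107 CPM, differences of genes such as *CYP26A1* rest on few reads.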

Other observations

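Several gene families outside the lists above also differed between the cell types. They were chosen after their values were seen, so they carry no test and no comparison with other families. Inhibitory and activating receptors of the leukocyte surface were mostly higher in granulocytes: 5 of 6 leukocyte immunoglobulin-like receptor genes tested, 4 of 4 CD300 genes and 10 of 12 sialic acid-binding *SIGLEC* genes had a large increase. *LILRA5* was at 0.828, 0.835 and 0.718 CPM in promyelocytes and 195, 188 and 195 CPM in granulocytes, and *SIGLEC7* at 0.761, 0.759 and 0.969 CPM against 37.2, 40.9 and 40.5 CPM. *SIGLEC8*, a receptor of eosinophils, was the 1 member with a large decrease, at 3.31, 2.47 and 2.30 CPM against 0.156, 0.337 and 0.342 CPM. All 4 *CD1* lipid-presenting genes tested and all 5 guanylate-binding protein genes, which act in defence inside the cell, had a large increase (median log2 fold changes 5.74 and 3.64). Of 10 CC chemokine genes, 9 had a large increase, and *CCL2*, which draws monocytes, was at 141, 144 and 142 CPM against 1848, 1715 and 1945 CPM. Of 7 lipoxygenase and leukotriene genes, 6 had a large increase, and *LTA4H*, which makes leukotriene B4, had a large decrease (85.3 ± 2.42 to 23.3 ± 1.96 CPM, log2 fold change -1.88). *ALOX5*, the 5-lipoxygenase gene, was at least 7.92-fold higher, since all promyelocyte libraries were at or under the floor and granulocytes reached 0.938, 0.843 and 0.753 CPM.

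Most members with a large difference in families of protein folding and mitochondrial translation were lower, beside the ribosome biogenesis genes of the report. Of 9 subunit genes of the cytosolic chaperonin, which folds actin and tubulin, 8 had a large decrease and *CCT6B* a large increase (1.67 ± 0.339 to 3.90 ± 0.0819 CPM, log2 fold change 1.22), and *CCT3* was at 553, 529 and 500.1 CPM in promyelocytes and 188, 180.2 and 191 CPM in granulocytes. Of 78 mitochondrial ribosomal protein genes, 28 had a large decrease and 0 a large increase (median -0.84). Small nucleolar RNA host genes, whose introns carry the RNAs that guide ribosomal RNA modification, had 15 large decreases of 25, with *SNHG16* at 463, 431 and 451 CPM against 136, 141 and 142 CPM. All 3 fatty acid desaturase genes of the *FADS* family had a large decrease, and *FADS2* was at 176, 159 and 155 CPM against 38.7, 42.6 and 44.1 CPM.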
